A study of Mus musculus with 54 samples.

Results

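Castrated prostate tumours of DKO_EP mice were compared with castrated prostate tumours of DKO mice, all collected at endstage, by bulk RNA sequencing. The members were chosen by their labels alone, as every library with treatment Cx and genotype DKO_EP (5 animals) or DKO (4 animals), which made 9 of the 54 libraries of the series. The series holds mouse prostate tissue of several engineered genotypes, taken intact at 12 weeks of age, intact at endstage, or at endstage after castration at 12 weeks. It also holds TKO mice of 15 to 19 weeks, with the treatment labels Cx-Veh and Cx-CPI1688. The TKO animals entered only the fits of all 11 groups. Per the design text of the series, DKO_EP and DKO_EE are DKO mice that also carry Ezh2 deletions. Which genes make up DKO, which alleles EP and EE stand for, and which promoter drives the recombination are not given in the sources used here. The 4 DKO animals were 39, 50, 84 and 99 weeks old, and the 5 DKO_EP animals were 35, 34, 35, 36 and 37 weeks old. Values are given in these orders throughout, as DKO replicates 1, 4, 3 and 2 and DKO_EP replicates 1 to 5. Each of the 9 libraries came from a separate animal.

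Ezh2 is the methyltransferase of Polycomb repressive complex 2, an enzyme complex that marks histone H3 on lysine 27 and so keeps many developmental genes silent. Castration removes testicular androgen, on which luminal prostate cells depend. Prostate tumours that escape it can lose luminal identity and take on neuroendocrine features, marked by Insm1, chromogranin A and synaptophysin, or basal and squamous features, marked by p63 and keratin 5.

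A gene's level is the deposited value, log2(normalized count + 1), and a difference is DKO_EP minus DKO on that scale. It understates the fold change of low genes. Differences were tested with limma over 16558 genes in one fit of the 14 castrated endstage animals (4 DKO, 5 DKO_EP and 5 DKO_EE), with Benjamini-Hochberg adjustment and a threshold of 0.05. The 9 libraries held 5024409 to 6662620 reads over the listed genes, and the 84-week DKO animal had both the fewest reads and the most genes at 0 (2036). One read corresponded to a level of 1.08 to 1.28.

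Age moved with genotype. The DKO animals averaged 68 ± 28.2 weeks (SD, n = 4) and the DKO_EP animals 35.4 ± 1.14 weeks (SD, n = 5), with no overlap (exact two-sided permutation test, p = 0.0159, the smallest that 4 against 5 animals allow). Without the 99-week animal p was 0.0357 by the same exact test. The animal identifiers also differ in form, DKO and a number in the DKO group against DKOE and a number in DKO_EP. Some intact DKO animals carry the DKOE form too, such as DKOE478. Genotype and age at endstage therefore cannot be told apart in these 9 libraries.

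Ezh2 itself was measured first. Its level was 9.62, 9.69, 9.71 and 8.43 in the DKO animals and 9.28, 9.27, 8.58, 9.38 and 9.34 in the DKO_EP animals. The groups overlapped through the 99-week DKO animal, and DKO_EP replicate 3 was the lowest of its group. The difference was -0.19 (SE 0.30; limma, adjusted p = 0.758), and without the 99-week animal -0.50 (adjusted p = 0.466). In the castrated DKO_EE animals, Ezh2 ranged from 8.02 to 9.19. A value per gene does not show which exons were read, so transcripts of a deleted allele can be counted here, and the Ezh2 level is no full check of the genotype labels. The other core subunits Eed, at 8.38 to 8.62 in DKO and 8.10 to 8.60 in DKO_EP, and Suz12, at 9.73 to 10.55 and 10.61 to 10.98, did not pass the test either. Suz12 was higher in every DKO_EP animal than in every DKO animal, by 0.48 (SE 0.15; limma, adjusted p = 0.199).

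Genes of the sex chromosomes raised a doubt about some DKO libraries. Xist, the RNA that coats the inactive X chromosome in females, was at 10.27, 4.60, 3.27 and 4.24 in DKO and 6.59, 7.56, 5.57, 3.18 and 5.68 in DKO_EP, highest in the 39-week DKO animal. The Y-linked gene Uty was at 8.20, 8.10, 4.96 and 9.64 in DKO and 9.22, 9.34, 9.05, 9.08 and 9.24 in DKO_EP, lowest in the 84-week DKO animal. Prostate tissue is male, so the source of the 39-week and 84-week DKO libraries is uncertain from these values, and the cause was not tested. Without the 39-week animal 10 genes passed the test described above and without the 84-week animal 67, and each set held all 5 genes that passed with all animals.

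The tissue label was checked against lineage markers. Luminal keratins were high in all 9 libraries, with Krt8 at 12.19 to 13.54 in DKO and 12.85 to 13.38 in DKO_EP. Chromogranin A (Chga) was at 10.14, 10.48, 10.51 and 3.59 in DKO and 11.03, 10.55, 10.56, 11.15 and 10.21 in DKO_EP, and Insm1, a zinc-finger factor of neuroendocrine cells, was at 10.29, 10.68, 10.93 and 1.25 and 10.78, 10.76, 11.12, 11.55 and 11.43. Both neuroendocrine genes were high in 8 of the 9 tumours, and the 99-week DKO tumour was the exception.

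That animal carried basal and squamous keratins instead. Urothelial genes were high in it too. Over 9 of them its mean level was 9.30, against 3.17 to 3.57 in the other DKO animals and 2.99 to 3.85 in DKO_EP. Which epithelium this tumour came from was not tested. Keratin 5 (Krt5), of basal cells, was at 3.62, 1.08, 0 and 14.23 in DKO and 0, 0, 7.34, 2.48 and 0 in DKO_EP, and Trp63, the basal cell factor p63, was at 5.07, 2.11, 0 and 11.31 and 1.25, 2.56, 5.21, 2.48 and 1.79. Keratin 13 (Krt13), of stratified epithelium, was at 0, 0, 0 and 11.74 and 4.53, 5.99, 5.70, 3.64 and 3.26. DKO_EP replicate 3 also had Krt5, and it had the most titin RNA, with Ttn, a skeletal and heart muscle gene, at 9.23, 10.57, 14.15, 9.07 and 6.86 across the DKO_EP replicates. Other muscle genes were low. Over 17 skeletal muscle genes the mean level was 2.35 in replicate 3 and 1.57 to 2.03 in the other DKO_EP animals. Myh1, Myh2, Myh4 and Ckm were at 0 in all DKO_EP animals. Of 38 neuroendocrine genes measured, the summed share of reads was 0.662% to 0.802% in the 3 younger DKO animals, 0.0157% in the 99-week animal and 0.788% to 1.03% in DKO_EP. The counts and medians of the gene lists and the called genes are therefore also given without the 99-week animal.

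**Figure D1:**
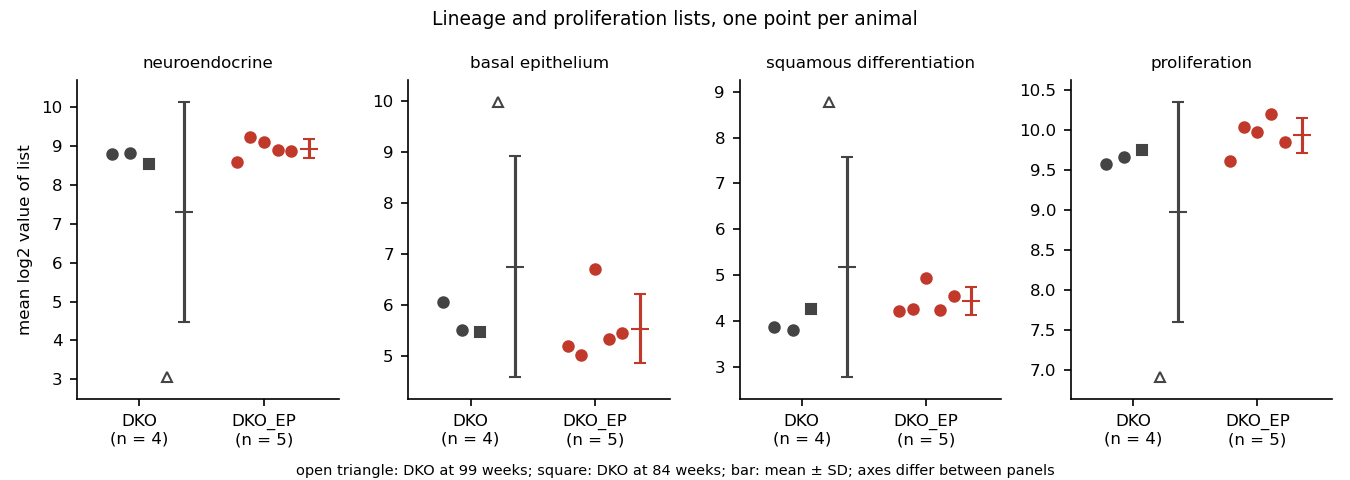
Mean level of the genes of 4 lists (y axis, mean of log2(normalized count + 1)) in each castrated animal, DKO against DKO_EP, with the mean and SD beside each group. The 99-week DKO animal, the open triangle, is at 3.05 for the neuroendocrine list against 8.53 to 8.83 in the other 3 DKO animals and 8.60 to 9.23 in DKO_EP.

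With all 9 animals, 5 of 16558 genes (0.0302%) passed the adjusted threshold. Zkscan2, Ccdc114 and Slc38a11 were higher in DKO_EP, and Pdcd1 and Traf3 were lower. At an unadjusted p under 0.05, 1105 genes were higher (6.67%) and 1318 were lower (7.96%). Every DKO_EP animal was above every DKO animal for 408 genes (2.46%) and below for 384 (2.32%). The median difference over all genes was 0.

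Zkscan2, which encodes a zinc-finger protein with SCAN and KRAB domains, lies on the minus strand at chr7:123475384-123500449 (GRCm38, ENSMUSG00000030757.13). Its level was 4.48, 3.72, 4.40 and 1.91 in the DKO animals and 7.31, 8.04, 8.02, 8.07 and 7.51 in the DKO_EP animals. All DKO_EP animals were above all DKO animals, and the 99-week DKO animal was the lowest. The means were 3.63 ± 1.20 (SD, n = 4) and 7.79 ± 0.36 (SD, n = 5), a difference of 4.16 (SE 0.44), or 17.9-fold on this scale (limma, adjusted p = 0.00192). Without the 99-week animal the difference was 3.59 (SE 0.26; limma, adjusted p = 4.97e-05).

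Ccdc114 codes for a docking protein of the outer dynein arms of motile cilia and lies at chr7:45924072-45948963 on the plus strand (ENSMUSG00000040189.18). Its level was 2.25, 2.44, 2.41 and 2.70 in DKO, where each library held 3 or 4 reads, and 7.19, 6.87, 4.79, 7.04 and 7.28 in DKO_EP. DKO_EP replicate 3 was the lowest of its group, still above every DKO animal. The difference was 4.19 (SE 0.49; limma, adjusted p = 0.00458), and 4.27 without the 99-week animal (adjusted p = 0.00935). Its span overlaps an antisense model and a processed pseudogene, neither of them in the deposited table, and whether the counting used strand is not given in the sources used here.

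Slc38a11, a putative sodium-coupled amino acid transporter gene at chr2:65316430-65364034 on the minus strand (ENSMUSG00000061171.15), was at 2.25, 2.71, 1.28 and 0 in DKO and 6.30, 5.45, 6.69, 7.57 and 5.88 in DKO_EP. The 99-week animal had no read and the other DKO animals at most 5. The groups did not overlap. The difference was 4.82 (SE 0.60; limma, adjusted p = 0.00675), and without the 99-week animal 4.30 (adjusted p = 0.00935).

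Pdcd1, which encodes the inhibitory T cell receptor PD-1, lies at chr1:94038305-94052553 on the minus strand (ENSMUSG00000026285.7). Its level was 3.62, 2.71, 3.27 and 3.74 in the DKO animals, from 5 to 9 reads each, and 0 in all 5 DKO_EP animals. Against 3 reads over the DKO_EP group it was at least 12.8-fold lower in DKO_EP. The limma difference was -3.33 (adjusted p = 0.00192), and without the 99-week animal -3.20 (adjusted p = 0.00492). Pdcd1 was among the lowest 25% of genes by mean level, with 29 reads in all in the DKO group.

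Traf3, an adaptor that restrains noncanonical NF-kappa-B signalling and takes part in interferon induction, lies at chr12:111166370-111267153 on the plus strand (ENSMUSG00000021277.16). It was at 9.59, 9.77, 9.79 and 9.73 in DKO and 9.11, 8.85, 8.87, 9.07 and 8.96 in DKO_EP. Its reads numbered 376 or more in every library, and its spread within each group was small, with SDs of 0.09 and 0.12. The difference was -0.75 (SE 0.11; limma, adjusted p = 0.0242), and without the 99-week animal -0.74 (adjusted p = 0.0232). Traf3 missed the threshold when the 50-week DKO animal was left out (adjusted p = 0.0581) and when DKO_EP replicate 2, 3, 4 or 5 was (adjusted p = 0.0687, 0.0819, 0.0588 and 0.0928, limma). Zkscan2, Ccdc114, Slc38a11 and Pdcd1 passed in each of the 9 fits that left out 1 animal.

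**Figure D2:**
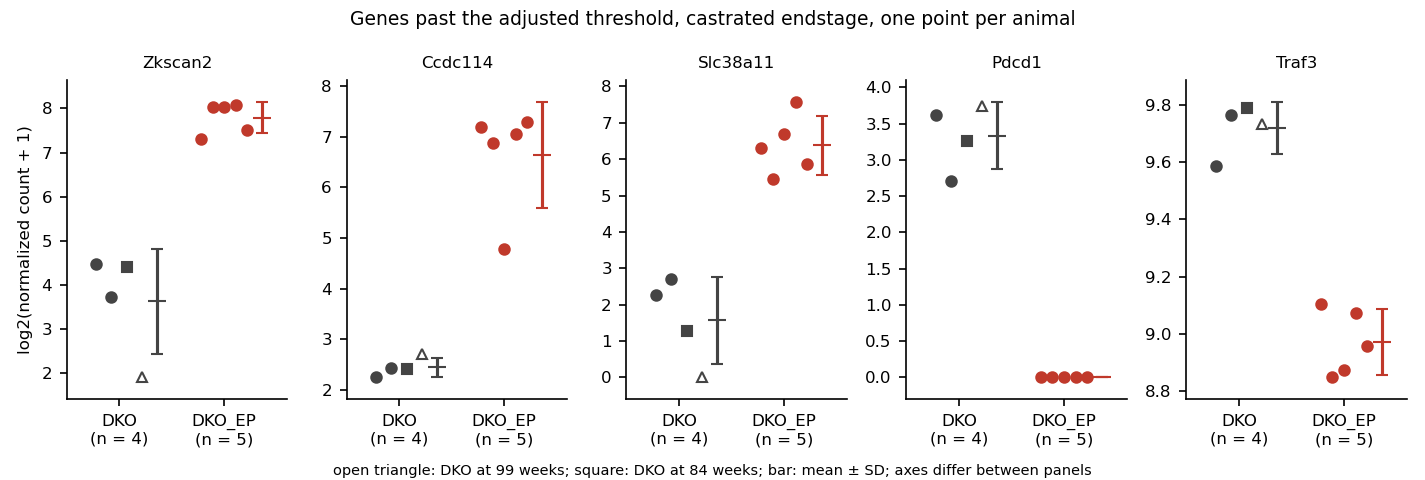
Level of the 5 genes (y axis, log2(normalized count + 1)) in each castrated animal, with the mean and SD beside each group. No DKO_EP animal overlaps a DKO animal in any panel, and all 5 DKO_EP animals are at 0 for Pdcd1.

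None of the 5 passed when age in weeks was added to the model as a covariate, which left 0 calls and 951 genes at an unadjusted p under 0.05. The differences with age in the model were 3.35 for Zkscan2, 4.22 for Ccdc114, 3.87 for Slc38a11, -3.13 for Pdcd1 and -0.67 for Traf3. Their adjusted p ranged from 0.124 to 0.505 (limma). A fit of the 9 DKO and DKO_EP animals alone also gave 0 calls, with 1839 genes at an unadjusted p under 0.05 and adjusted p from 0.059 to 0.135 for the 5 genes. Limma-voom on the recovered reads called Zkscan2 and Pdcd1. With quantile normalization 5 genes were higher and 2 lower.

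Without the 99-week DKO animal, 15 of 16472 genes (0.0911%) passed, 10 higher and 5 lower in DKO_EP, and they held all 5 genes above. Those named next were chosen for mention after their values were seen. Among those higher were Fam169a, Corin, Adcy1, Cfap69, Hoxd8 and Krt13. Lower were Smarca2, Olfr328 and Olfr330. The fit of 3 DKO and 5 DKO_EP animals alone called 7 higher and 7 lower, and the fit of the 13 animals with age in the model called Zkscan2 (adjusted p = 0.00266, limma) and, lower, the lymphocyte factor gene Ikzf3. Both settings were chosen after seeing the data.

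Adcy1, the gene of a calcium-stimulated adenylyl cyclase of neurons, was at 10.31, 10.72, 10.19 and 4.53 in DKO and 11.84, 11.90, 11.69, 11.57 and 11.67 in DKO_EP. Corin, a transmembrane serine protease gene, was at 6.85, 7.21, 7.29 and 1.91 and 8.94, 9.32, 9.29, 9.01 and 8.60. In both genes the 99-week animal lay far below the other DKO animals, and every DKO_EP animal was above all of them. Without it the differences were 1.33 (adjusted p = 0.012) and 1.91 (adjusted p = 0.0246, limma). Fam169a followed the same order, at 6.85, 6.67, 5.90 and 1.91 and 7.85, 8.21, 8.79, 8.55 and 8.68, a difference of 1.94 without the 99-week animal (adjusted p = 0.00945, limma).

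Krt13 was at 0 in the 3 younger DKO animals and at 3.26 to 5.99 in DKO_EP, while the 99-week DKO animal was at 11.74. Its difference was 1.69 (SE 1.98; adjusted p = 0.676) with all animals and 4.63 (SE 0.76; adjusted p = 0.0429, limma) without that one. Krt13 was called only without the animal in which it was highest. The pair of olfactory receptor genes Olfr328 and Olfr330 was at 0 in all 5 DKO_EP animals and in the 99-week animal, and at 2.86 to 3.30 and 3.09 to 4.31 in the other DKO animals. They are close paralogs, so reads may be divided between them.

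Smarca2, which encodes the BRM ATPase of SWI/SNF chromatin remodelling complexes, was at 9.31, 9.37, 9.88 and 9.26 in DKO and 8.42, 8.59, 8.33, 8.58 and 8.14 in DKO_EP, with no overlap. Its difference was -1.04 (SE 0.17; adjusted p = 0.0687) and, without the 99-week animal, -1.11 (adjusted p = 0.0429, limma). Cfap69, a gene of cilia and flagella, was at 3.46, 2.44, 1.95 and 4.61 and 6.39, 5.37, 5.77, 6.62 and 6.07, with differences of 2.93 (adjusted p = 0.0889) and 3.43 (adjusted p = 0.00945, limma).

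The genes with the next smallest p did not pass the test with all animals. Among those higher in DKO_EP, Lsamp, a neuronal cell adhesion gene, was at 0, 6.64, 1.28 and 1.25 in DKO and 7.55, 8.75, 10.10, 10.40 and 8.59 in DKO_EP. Only the 50-week DKO animal had more than 1 read, and its level was still below all DKO_EP animals. The difference was 6.79 (SE 1.12; limma, adjusted p = 0.0687). The cyclic AMP phosphodiesterase gene Pde8b was at 6.86, 6.52, 5.80 and 5.35 and 8.22, 7.43, 8.0, 8.47 and 7.94, a difference of 1.88 (adjusted p = 0.0687). The calmodulin-dependent kinase gene Camk1d, the metabotropic glutamate receptor gene Grm8 and Csrnp3 differed by 0.79, 4.57 and 3.90, with adjusted p of 0.0889, 0.0889 and 0.111 (limma). Each but Csrnp3 had no overlap between the groups.

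Among those lower in DKO_EP, the secreted metalloprotease gene Adamts15 was at 7.21, 7.16, 5.76 and 8.14 in DKO and 3.75, 4.45, 4.37, 3.89 and 1.79 in DKO_EP, a difference of -3.42 (adjusted p = 0.0745). Sh3bp5 and the PDZ scaffold gene Slc9a3r2 differed by -1.34 and -1.19 (adjusted p = 0.0889 and 0.102). Serpinb9, an inhibitor of granzyme B, differed by -1.64, the eosinophil chemokine gene Ccl11 by -1.46, the NF-kappa-B inhibitor gene Nfkbie by -1.53, complement C3 by -2.98 and the class II gene H2-Eb1 by -2.13. All 5 had an adjusted p of 0.118 (limma) and no overlap between the groups.

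T cell genes were lower in DKO_EP at an unadjusted p. Of 25 genes of T and NK cells, 15 were lower at an unadjusted p under 0.05 and 0 were higher, beside the 7.96% and 6.67% over all genes, and the median difference was -1.88 against 0. Pdcd1 alone passed the adjusted threshold. The median depended on low genes: it was -0.49 with an offset of 8 in place of 1, and 0.11 over the 4 members left when the lowest 25% of genes were left out. In 7 genes every DKO_EP animal was below every DKO animal, beside 2.32% over all genes. Cd8a, the coreceptor of cytotoxic T cells, was at 4.77, 3.84, 3.03 and 4.83 in DKO and 1.91, 1.15, 2.16, 1.10 and 1.79 in DKO_EP. Cd3e, a chain of the T cell receptor complex, was at 5.23, 4.04, 1.28 and 5.49 and 1.25, 1.78, 1.11, 0 and 0. For Cd3e the 84-week DKO animal lay inside the DKO_EP range, and the other 3 DKO animals lay above it.

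Nkg7, a gene of cytotoxic granules, was at 4.11, 2.93, 1.28 and 4.24 in DKO and 0, 0, 1.73, 0 and 0 in DKO_EP, a difference of -2.80 (adjusted p = 0.119). The difference of Cd8a was -2.49 (SE 0.52; limma, adjusted p = 0.118). For Cd8a and Nkg7 a library held at most 21 reads. In bulk tissue, fewer cells of a type and less RNA per cell cannot be told apart.

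The summed share of reads of the 25 T and NK cell genes was 0.00439% to 0.0116% in DKO and 0.00318% to 0.0078% in DKO_EP, which overlapped. Among them Gzma, the granzyme A gene, was at 8.70, 7.92, 9.05 and 1.91 in DKO and 8.78, 8.62, 8.27, 6.61 and 7.84 in DKO_EP, and it was low only in the 99-week animal. Prf1, Ncr1, Ctla4 and Pdcd1 were at 0 in all DKO_EP animals. The part of T cell content in the Pdcd1 difference was not tested.

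Genes of class II antigen presentation, which show peptides to helper T cells, were also lower at an unadjusted p. Of 12 measured, 9 were lower at an unadjusted p under 0.05 and 0 were higher, beside 7.96% and 6.67% over all genes. The median difference was -1.67, and none passed the adjusted threshold. Cd74, the invariant chain, was at 11.41, 10.54, 9.40 and 11.55 in DKO and 8.98, 8.69, 8.64, 8.73 and 9.30 in DKO_EP. The groups did not overlap, with the 84-week DKO animal the nearest to DKO_EP. The difference was -1.86 (SE 0.40; limma, adjusted p = 0.118). H2-Eb1 was at 9.80, 8.84, 7.41 and 9.73 and 7.07, 6.53, 6.80, 7.12 and 6.60, H2-Aa at 10.31, 9.39, 7.88 and 10.14 and 8.07, 7.51, 7.52, 7.59 and 7.40, and H2-Ab1 at 9.73, 8.79, 7.12 and 9.66 and 6.96, 6.79, 6.90, 7.19 and 7.14. In H2-Aa and H2-Ab1 the 84-week DKO animal lay inside the DKO_EP range. These genes have close paralogs, so the split of reads among them is uncertain.

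Of 14 genes of B and plasma cells, 5 were lower at an unadjusted p under 0.05 and 0 were higher. Over all genes the shares were 7.96% and 6.67%. The median of the 14 genes was -1.89. That median was -1.0 with an offset of 8, -1.03 over the 3 members left without the lowest 25% of genes, -1.07 without the 39-week DKO animal and -2.85 without the 84-week one. Irf4, a factor of activated lymphocytes and plasma cells, was at 5.41, 3.59, 2.41 and 4.97 in DKO and 1.25, 1.15, 1.11, 1.10 and 0 in DKO_EP, a difference of -3.17 (adjusted p = 0.12). Jchain, the antibody joining chain, was at 7.20, 4.31, 4.30 and 8.13 and 3.59, 2.56, 4.20, 3.18 and 1.16, and Cd79b, of the B cell receptor, at 5.49, 3.30, 3.03 and 4.13 and 2.99, 0, 0, 2.15 and 1.79. None of the 3 overlapped between the groups, and none passed the adjusted threshold. Of 18 macrophage genes 4 were lower and 0 higher, beside the same shares over all genes, with a median of -0.55. The receptor gene Csf1r was at 9.23, 9.51, 8.51 and 9.33 and 8.56, 7.76, 8.37, 7.86 and 8.51, with overlap, and Mrc1 was at 8.46, 9.97, 7.23 and 8.62 and 7.72, 6.83, 7.08, 7.78 and 6.63.

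Class I antigen presentation showed smaller differences. Of 19 genes 3 were lower at an unadjusted p under 0.05, beside 7.96% over all genes, with a median of -0.56. Without the 99-week animal 3 were lower, beside 5.69% over all genes, with a median of -0.63. The median was -0.29 without the 39-week DKO animal, -0.22 without the 50-week one and -0.26 without DKO_EP replicate 4. The peptide loading gene Tapbp was at 11.38, 11.40, 11.54 and 11.39 in DKO and 10.63, 11.21, 10.49, 10.18 and 10.78 in DKO_EP, a difference of -0.77 (adjusted p = 0.188, limma), with no overlap. The transporter gene Tap2 differed by -0.88 (adjusted p = 0.235). Of 36 interferon response genes 1 was lower and 0 higher, a smaller share than over all genes, with a median of -0.19. Without the 99-week animal the count was the same and the median -0.26. The median changed sign without the 50-week DKO animal (0.04) and without DKO_EP replicate 4 (0.06), was near 0 without the 39-week DKO animal, and was -0.56 without the 84-week one, -0.30 without DKO_EP replicate 1 and -0.36 without replicate 2, so no direction is given for this list. The gene that was lower was the chemokine gene Cxcl9, at 6.86, 7.03, 5.64 and 6.13 and 5.26, 5.99, 4.91, 3.89 and 2.56.

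**Figure D3:**
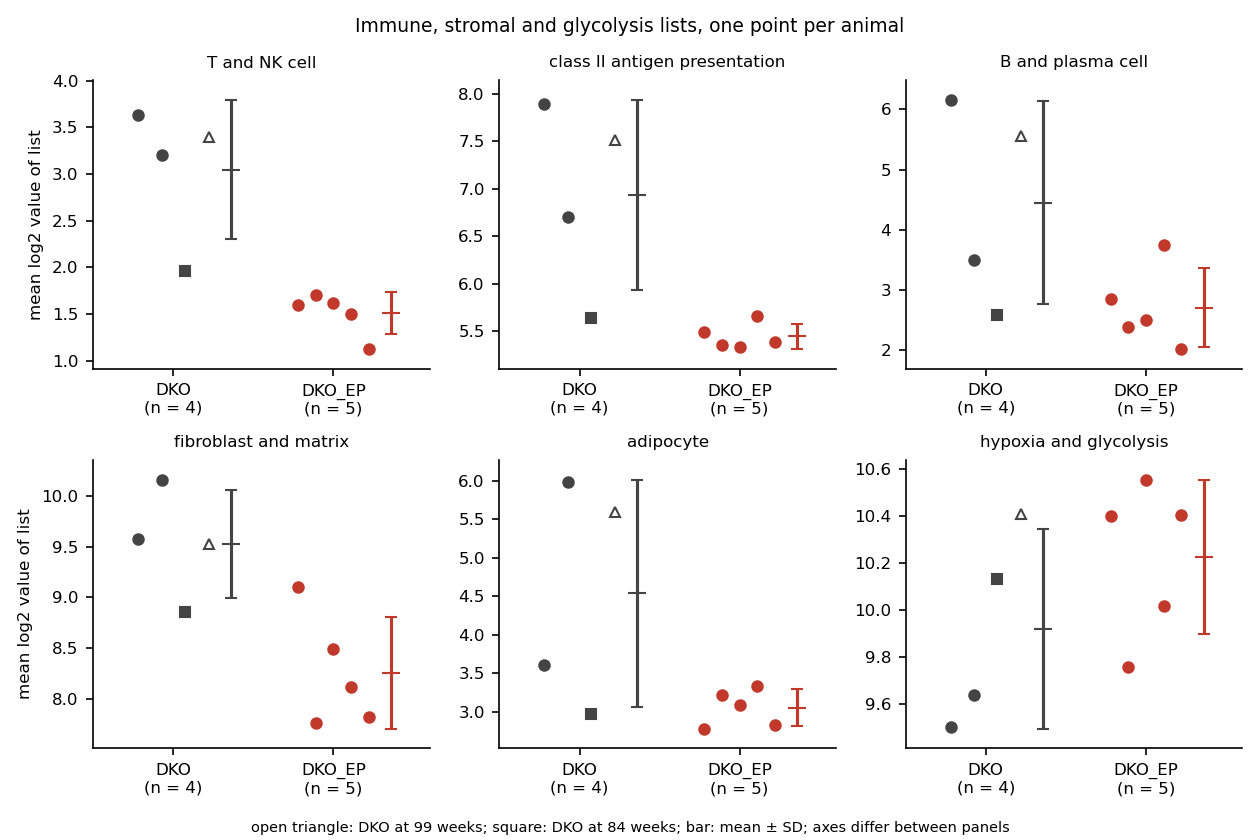
Mean level of the genes of 6 lists (y axis, mean of log2(normalized count + 1)) in each castrated animal, with the mean and SD beside each group. For class II antigen presentation the 84-week DKO animal, the square, is the closest of its group to the DKO_EP animals, which range from 5.33 to 5.65.

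Some stromal genes were lower at an unadjusted p as well. Of 24 fibroblast and matrix genes 10 were lower at an unadjusted p under 0.05 and 0 were higher, with a median of -0.90, and without the 99-week animal 12 were lower, with a median of -0.94. The summed share of reads was 0.441% to 0.957% in DKO and 0.19% to 0.581% in DKO_EP. Decorin (Dcn), a matrix proteoglycan, was at 10.77, 10.40, 8.23 and 11.08 in DKO and 9.06, 7.46, 6.26, 8.12 and 8.48 in DKO_EP, and the 84-week DKO animal lay inside the DKO_EP range. Pdgfra, a fibroblast receptor gene, was at 8.50, 8.31, 6.73 and 9.29 and 6.99, 5.37, 6.87, 6.26 and 4.37, and complement C3 at 11.86, 11.86, 9.28 and 12.86 and 9.18, 8.38, 8.02, 8.86 and 7.98. The Dcn difference was -2.24 (SE 0.62) and that of Pdgfra -2.24 (SE 0.65), with adjusted p of 0.183 and 0.193 (limma). Col1a1, of collagen I, did not pass even the unadjusted threshold, at 12.42 to 13.58 in DKO and 11.55 to 13.37 in DKO_EP. Of 18 endothelial genes 3 were lower (median -0.67), and 0 without the 99-week animal (median -0.64). Of 17 smooth muscle genes 2 were lower (median -0.61), and 1 without that animal (median -0.49). Over all genes 7.96% were lower, and 5.69% without that animal. The endothelial and smooth muscle counts without it were thus below or near the share over all genes. Of 16 adipocyte genes 6 were lower, with a median of -1.45 that was -0.76 with an offset of 8 and -0.58 over the 6 members left without the lowest 25% of genes. Among the 6 lower ones were the leptin gene Lep, at 2.25, 3.30, 0 and 3.74 and 0, 0, 0, 1.10 and 0, and Car3, at 3.09, 8.57, 1.28 and 7.01 and 1.25, 1.15, 0, 2.75 and 1.79. The part of immune and stromal cell content in any difference above was not tested.

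Without the 99-week animal these medians kept their sign. They were -1.53 for T and NK cells, -1.40 for class II, -1.44 for B and plasma cells, -0.57 for macrophages and -1.06 for adipocytes. The numbers lower at an unadjusted p under 0.05 were 12 of 25, 6 of 12, 3 of 14, 3 of 18 and 2 of 16, against 938 of all 16472 genes (5.69%). For higher genes that background was 914 (5.55%). With the 39-week and 50-week DKO animals alone the medians were -2.27, -2.0 and -2.58 for the lymphoid and class II lists. Leaving out the 84-week animal instead gave 12 genes higher and 55 lower past the adjusted threshold, with 6 T and NK cell genes, 4 class II genes, Irf4, Dcn and C3 among the 55.

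The median neuroendocrine difference rested mostly on the 99-week animal. Of 38 genes 6 were higher at an unadjusted p under 0.05 and 0 lower, 36 of 38 differences were above 0, and the median was 1.73. Without that animal the median was 0.23, with 7 higher and 2 lower, beside 5.55% and 5.69% over all genes. With age in the model the median was -0.50. Snap25, a vesicle fusion gene of nerve terminals, was at 11.20, 11.44, 10.66 and 6.96 in DKO and 12.21, 12.14, 12.84, 12.50 and 12.15 in DKO_EP, so all DKO_EP animals were also above the 3 younger DKO animals. Its difference was 2.30 (adjusted p = 0.199) and 1.27 without the 99-week animal (adjusted p = 0.0918, limma). Foxa2, which encodes a forkhead transcription factor found in neuroendocrine prostate tumours, was at 9.58, 9.86, 9.98 and 4.24 and 10.15, 10.59, 11.09, 10.54 and 10.38, and Syp, synaptophysin, at 10.12, 9.83, 10.27 and 2.36 and 8.68, 10.19, 9.39, 9.79 and 9.61. In the 3 younger DKO animals Syp lay inside or just above the DKO_EP range, and Foxa2 lay below it.

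Of 10 neurofilament and other intermediate filament genes 2 were higher and 1 was lower at an unadjusted p under 0.05, with a median of -0.04. When the 99-week animal was left out, 1 was higher and 0 lower, with a median of -0.13. The neurofilament gene Nefl was at 0, 3.84, 0 and 0 in DKO and 4.14, 2.56, 5.34, 7.29 and 13.02 in DKO_EP, a difference of 5.51 (SE 1.61; limma, adjusted p = 0.195), and DKO_EP replicate 5 was far above the other 8 animals.

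The basal and squamous differences also rested on the 99-week animal. The medians were -1.09 over 22 basal genes and -0.83 over 25 squamous genes with all animals, and -0.12 and 0.09 without the 99-week one. At an unadjusted p under 0.05, 2 basal genes were lower and 0 squamous genes passed, and without that animal 0 basal genes passed and 3 squamous genes were higher. The receptor gene Egfr was at 8.99, 9.01, 9.03 and 11.38 in DKO and 8.96, 8.41, 8.44, 6.50 and 8.28 in DKO_EP, with no overlap. The younger DKO animals and DKO_EP replicate 1 were within 0.1 of each other, the 99-week animal was the highest and DKO_EP replicate 4 the lowest. Of 22 luminal genes 2 were higher and 0 lower at an unadjusted p under 0.05, and the median changed sign, from -0.10 to 0.32 without the 99-week animal. Without it 4 were higher and 0 lower. Of 27 androgen response genes 2 were higher and 4 lower, with a median of -0.27, and without that animal 2 were higher and 1 lower, with a median of -0.24. The androgen response median was -0.41 without the 39-week, the 50-week or the 84-week DKO animal and -0.45 without DKO_EP replicate 2.

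The proliferation median was smaller without the 99-week animal, while some genes remained higher at an unadjusted p. Of 30 genes 13 were higher at an unadjusted p under 0.05 and 0 lower, with a median of 0.97. In the 8 animals without the 99-week one 7 were higher and 0 lower, beside 5.55% and 5.69% over all genes, with a median of 0.26. The median with age in the model was -0.11. Mki67, the Ki-67 gene, was at 13.59, 13.86, 13.86 and 10.80 in DKO and 13.60, 14.05, 13.88, 13.64 and 13.66 in DKO_EP. The mitotic kinase gene Plk1 was at 8.92, 9.04, 9.08 and 6.63 and 9.11, 9.62, 9.35, 10.08 and 9.27, a difference of 1.07 that was 0.47 without the 99-week animal (adjusted p = 0.281 and 0.38, limma). Of 33 E2F and replication genes 9 were higher and 0 lower, with a median of 0.43, and without that animal 5 were higher and 1 lower, with a median of 0.10. The helicase gene Mcm2 was at 10.52, 10.54, 10.56 and 9.05 and 11.06, 10.74, 10.76, 11.06 and 10.75, with every DKO_EP animal above every DKO animal by a small margin.

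Some hypoxia and glycolysis genes were higher in DKO_EP at an unadjusted p with and without that animal, and none passed the adjusted threshold. Of 22 hypoxia and glycolysis genes 8 were higher at an unadjusted p under 0.05 and 0 lower, with a median of 0.42, and 5 higher with a median of 0.50 without the 99-week animal. Of the 8, Eno1, Aldoa, Ldha, Tpi1 and Gapdh encode glycolytic enzymes, and the others were Bnip3, Pdk1 and Kdm3a. Enolase (Eno1) was at 12.04, 12.39, 11.91 and 11.66 in DKO and 13.06, 12.51, 13.24, 12.95 and 12.84 in DKO_EP, aldolase (Aldoa) at 12.36, 12.61, 12.44 and 12.54 and 13.05, 12.87, 13.23, 13.09 and 13.03, and lactate dehydrogenase A (Ldha) at 12.21, 12.57, 12.24 and 12.45 and 12.98, 12.85, 13.60, 13.18 and 12.97. No DKO_EP animal overlapped a DKO animal in these 3 genes. The differences were 0.92 (SE 0.19), 0.57 (SE 0.13) and 0.75 (SE 0.21), with adjusted p of 0.118, 0.133 and 0.182 (limma). Over the list the summed shares of reads were 0.521% to 0.657% in DKO and 0.635% to 0.966% in DKO_EP, which overlapped.

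Among developmental genes that Polycomb complexes are known to hold silent, more were lower in DKO_EP than higher. Of 52 such factors 2 were higher and 8 lower at an unadjusted p under 0.05, beside 6.67% and 7.96% over all genes, and the median was -0.52. With the 3 younger DKO animals 3 were higher and 4 lower, shares near the 5.55% and 5.69% over all genes, with a median of -0.36. The median was -0.04 over the 21 members left without the lowest 25% of genes, -0.12 with age in the model, and -0.79 without the 84-week DKO animal. Gata3, a luminal and urothelial factor, was at 11.10, 10.90, 11.53 and 10.90 in DKO and 8.34, 10.40, 9.20, 9.17 and 10.36 in DKO_EP, and Foxf1, a mesenchymal factor, at 5.36, 4.90, 7.33 and 6.31 and 3.59, 3.43, 4.73, 4.19 and 3.44. Both were lower in every DKO_EP animal than in every DKO animal, with differences of -1.61 (SE 0.46) and -2.10 (SE 0.54) and adjusted p of 0.192 and 0.171 (limma). Bmp2, the growth factor gene, was at 7.69, 7.77, 6.54 and 6.50 and 8.75, 8.78, 9.43, 8.75 and 7.59, a difference of 1.53 (adjusted p = 0.139). Irx1 was at 2.25, 0, 3.03 and 3.88 in DKO and at 0 in all DKO_EP animals.

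Of 35 Hox genes 3 were higher and 3 lower at an unadjusted p under 0.05, shares near the 6.67% and 7.96% over all genes, and without the 99-week animal 4 were higher and 0 lower. The median, 0.22, was 0.36 without the 99-week animal and changed sign without the 84-week one (-0.11). Hoxd8, at chr2:74704615-74707933, was at 5.45, 6.23, 3.27 and 7.48 in DKO and 8.59, 8.83, 7.86, 8.84 and 8.34 in DKO_EP, above all DKO animals, a difference of 2.89 (SE 0.60; adjusted p = 0.118) that passed without the 99-week animal at 3.51 (SE 0.49; adjusted p = 0.012, limma). Hoxd3 was at 3.09, 2.11, 0 and 3.59 and 4.53, 4.27, 3.52, 5.28 and 4.45, and Hoxd9 at 4.11, 4.90, 1.95 and 6.74 and 6.82, 6.63, 5.53, 7.51 and 6.20, with the 84-week DKO animal the lowest in these genes. Hoxb6 was at 5.49, 3.72, 3.64 and 7.35 and 2.99, 0, 3.19, 1.10 and 2.23, lower in every DKO_EP animal, a difference of -3.15 (adjusted p = 0.254). An antisense gene, Hoxd3os1, overlaps Hoxd8, so without strand the reads of both cannot be told apart.

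Of 38 genes of Wnt signalling 3 were higher and 9 lower at an unadjusted p under 0.05, with a median of -0.78. Leaving out the 99-week animal gave 2 higher and 3 lower, with a median of -0.25. The ligand gene Wnt3 was at 1.17, 1.08, 0 and 0 in DKO and 3.89, 3.43, 4.96, 2.98 and 1.16 in DKO_EP, and the secreted antagonist gene Sfrp1 at 10.21, 10.33, 7.19 and 8.42 and 7.49, 7.07, 6.21, 7.82 and 4.37. Their differences were 2.72 and -2.45, with adjusted p of 0.138 and 0.244 (limma), and both overlapped between the groups. Of 19 members of Polycomb repressive complex 1, 0 were higher and 2 lower at an unadjusted p under 0.05, and of 11 members of complex 2, 2 were higher and 0 lower. The counts without the 99-week animal were 1 higher and 3 lower for complex 1 and 1 higher and 0 lower for complex 2. The medians were 0.12 and 0.10, and -0.05 and -0.01 without the 99-week animal.

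The same genotypes were compared in intact mice. The intact endstage DKO animals were 37, 46 and 35 weeks old and the intact endstage DKO_EP animals 42, 39 and 52 weeks. These 3 DKO_EP animals gave 5 libraries, and the values of pieces from 1 animal were averaged. At intact endstage, 0 of 16640 genes (0%) passed between 3 DKO_EP and 3 DKO animals (965 at an unadjusted p under 0.05). At 12 weeks it was 0 of 16626 (0%) between 4 and 4 animals (449 at an unadjusted p under 0.05, limma). Each fit also held the intact DKO_EE animals of its stage, which entered the estimate of spread. Their endstage libraries held 0.00853% to 35.3% of reads on Lars2. Lars2 was not called at intact endstage, although its shares in DKO_EP and DKO, given below, did not overlap. The 0 calls therefore do not show that the intact genotypes were alike. Zkscan2 ranged from 5.96 to 7.43 in intact endstage DKO and 5.91 to 7.48 in intact endstage DKO_EP, a difference of 0.05 (adjusted p = 1). At 12 weeks it was at or below 3.07 in both genotypes. Among the 6 endstage groups of DKO, DKO_EP and DKO_EE animals, castrated DKO thus had the lowest mean of Zkscan2. Castrated DKO also had the lowest mean of Ccdc114 and the highest mean of Traf3. Its mean of Slc38a11 was the lowest too. Slc38a11 ranged from 4.20 to 8.69 in intact endstage DKO and 2.73 to 6.58 in intact endstage DKO_EP. The Slc38a11 difference there was -1.93 (adjusted p = 0.887).

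Whether the DKO_EP difference itself depended on castration was tested as an interaction, the castrated difference minus the intact endstage one, in one limma fit of 48 animals in 11 groups. The oldest intact endstage animal of these genotypes was DKO_EP, whereas every castrated DKO_EP animal was younger than every castrated DKO animal. The part of age in the interaction was not tested. Of 16772 genes 4 passed (0.0238%), all chosen for mention after their values were seen. Lars2 passed in every alternative that tested it. In the fit with its own level as a covariate it was left out and not tested. Traf3, Cfap69 and Hist1h4m were lost in several, all 3 of them without the 84-week DKO animal or without DKO_EP replicate 2, 3, 4 or 5. Without the 99-week animal Lars2, Traf3 and Cfap69 passed. The castrated difference of Traf3, -0.75, stood against 0.52 in intact endstage tumours, an interaction of -1.27 (SE 0.24; adjusted p = 0.0417). For Cfap69 the values were 2.93 and -0.58, an interaction of 3.51 (adjusted p = 0.0417). The interaction of Zkscan2 was 4.11 and that of Slc38a11 6.74, with adjusted p of 0.514 and 0.096.

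The other 2 genes past the interaction test were Lars2, at -10.49, and Hist1h4m, at 5.79. Lars2, a mitochondrial leucyl-tRNA synthetase gene, took 14.2% to 21.6% of all reads in the intact endstage DKO_EP libraries, at most 0.0258% in those of intact endstage DKO and at most 0.00582% in the 9 castrated ones. With the Lars2 level as a covariate 0 genes passed the interaction test (1099 at an unadjusted p under 0.05, limma). Hist1h4m, 1 of several near-identical histone H4 genes, was at 0, 6.93, 0 and 0 in castrated DKO and 6.67, 6.95, 6.62, 7.16 and 6.85 in castrated DKO_EP, and reads may be divided among the copies.

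**Figure D4:**
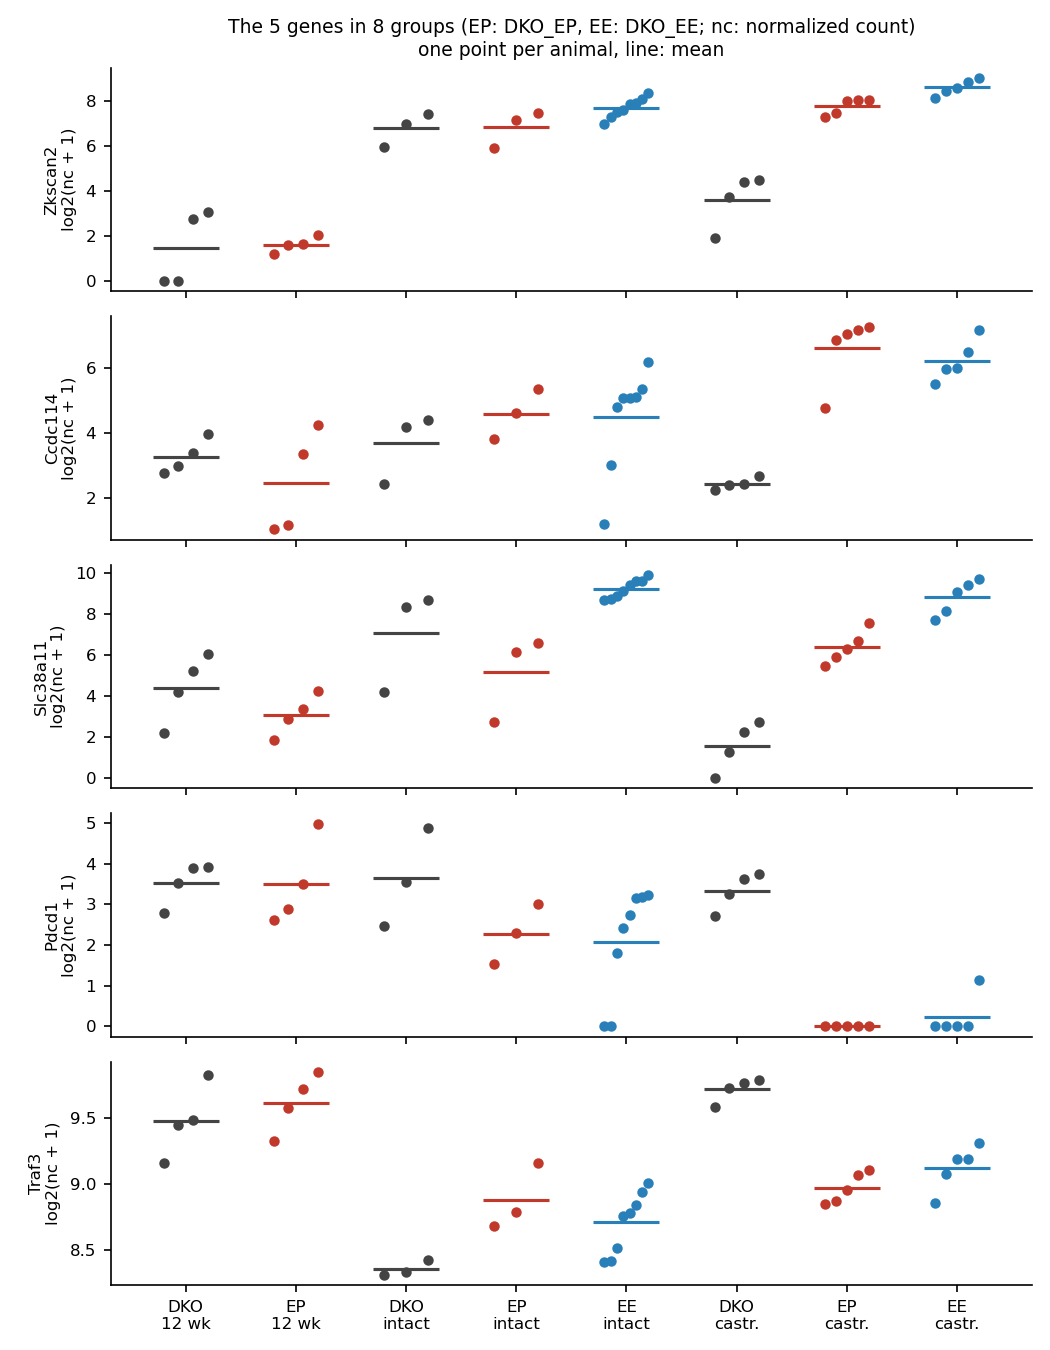
Level of the 5 genes (y axis, log2(normalized count + 1)) in each animal of 8 groups (x axis), with the group mean as a line. Castrated DKO animals have the lowest means of Zkscan2, Ccdc114 and Slc38a11 and the highest mean of Traf3 among the endstage groups. Castrated DKO_EP animals are at 0 for Pdcd1.

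The castrated DKO_EE animals were set beside DKO_EP. Both comparisons share the 4 DKO animals, so their likeness is not independent. In DKO_EE against DKO, 1278 of 16558 genes passed (7.72%), against the 5 in DKO_EP. For Zkscan2 the differences were 4.16 in DKO_EP and 5.0 in DKO_EE (adjusted p = 3.52e-05), for Ccdc114 4.19 and 3.79 (adjusted p = 0.000907), and for Slc38a11 4.82 and 7.24 (adjusted p = 2.33e-05). For Pdcd1 they were -3.33 and -3.11 (adjusted p = 0.000213), and for Traf3 -0.75 and -0.59 (adjusted p = 0.00607, limma). The DKO_EE animals were 35 to 59 weeks old, also younger on average than DKO, at 43.8 ± 9.36 weeks (SD, n = 5).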

How the data were processed

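Bulk RNA was sequenced from prostate tumours, with ribosomal RNA removed, per the labels' protocols. The submitters' processing notes name FastQC, STAR, RSEM, limma and DESeq2, without versions, and both GRCm38 and mm10 as builds. Whether the counting used strand is not given in the sources used here. The authors deposited one table of 16772 genes with values on a log2 scale, log2(normalized count + 1). All values, less the offset, were whole multiples of 1 step per library (100% within 0.05), so read numbers were recovered from them. Of its 56 columns, 2 matched no sample and were not used.

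Groups came from the labels. The deposited log2 values were tested in limma 3.58.1 (R 4.3.3) with a mean-variance trend and Benjamini-Hochberg adjustment, after a check on simulated data. Leaving out 214 genes without spread left 16558. Gene positions are from GENCODE M21, whose symbols matched 99.9% of the genes. SEs and p-values measure the spread between animals.

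The groups, the genes named and the gene lists were chosen with earlier results of these data known. Named were up to 15 genes in each direction past the test, by size of difference and outside the lowest 25% by mean level. Where fewer than 10 passed, genes with the smallest p filled up to 10. From each of 23 lists the members of smallest adjusted p, at most 4, were added, and so was a fixed set. Other genes were named after their values were seen, and some that the rule names are not reported here. Alternatives were a filter on low genes, another offset, quantile normalization, array weights, other groups in the fit, age, limma-voom and leaving out animals.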

Additional observations from a re-analysis of the deposited data

Results flagged for a closer look

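Of 156 groups of animals tested, 1 gene in 1 group at a time, 28 had an animal that stood apart from its group by Dixon's test. The chance rate of about 1 in 20 does not hold for groups whose other animals are tied at 0. Nor does it hold for Corin, Adcy1, Olfr328 and Krt13, which were named because they passed without the 99-week animal. The 99-week DKO animal accounted for 13 of the 28, those genes among them. It was far below the other DKO animals for neuroendocrine genes, with Chga at 3.59, Insm1 at 1.25, Syp at 2.36 and Foxa2 at 4.24. It was also below them for the dividing cell genes Mki67 at 10.80, Plk1 at 6.63 and Mcm2 at 9.05, for Ezh2 at 8.43, and for Olfr328 at 0. The same held for Corin at 1.91 and Adcy1 at 4.53. It was far above them for Krt13 at 11.74 and Egfr at 11.38.

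The other DKO animals stood apart less often. The 50-week animal did for Nefl at 3.84 and Hist1h4m at 6.93, where the rest of its group were at 0. The 84-week animal was the highest of its group for Smarca2 at 9.88 and Tapbp at 11.54, and the 39-week animal for Lars2 at 8.66.

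Among DKO_EP animals, replicate 3 was the lowest for Ccdc114 at 4.79 and Ezh2 at 8.58 and the highest for Nkg7 at 1.73. Replicate 5 was the lowest for Adamts15 at 1.79 and Irf4 at 0. Replicate 4 was the lowest for Egfr at 6.50 and the highest for Lep at 1.10. Replicate 2 was the lowest for Nfkbie at 4.45 and the highest for Tap2 at 8.88, and replicate 1 was the highest for H2-Aa at 8.07.

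For 4 genes the DKO_EP difference itself differed between castrated and intact endstage animals in the limma interaction test. The interaction was -10.49 for Lars2, 5.79 for Hist1h4m, -1.27 for Traf3 and 3.51 for Cfap69.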

How the results depend on the processing

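Of the 5 genes, Zkscan2 passed the threshold under 20 of 22 alternatives, Pdcd1 under 18 of 21, Ccdc114 and Slc38a11 under 17 of 22 and Traf3 under 10 of 22. None of the 5 changed direction. Against 3 genes higher and 2 lower, leaving out the lowest 25% of genes gave 3 and 1, an offset of 8 gave 6 and 8, quantile normalization 5 and 2, array weights 19 and 38, and all 11 groups in the fit 27 and 18. Only DKO and DKO_EP in the fit, or age as a covariate, gave 0 and 0. Without both DKO animals over 80 weeks the counts were 15 and 22, and limma-voom gave 1 and 1. Leaving out 1 animal at a time gave 3 to 12 higher and 1 to 55 lower. Settings chosen after seeing the data all left out the 99-week animal. With DKO_EP replicate 3 out as well they gave 8 and 2, with only DKO and DKO_EP in the fit 7 and 7, with limma-voom 2 and 10, and with age 1 and 1. Against 4 genes past the interaction test, there were 5 with the lowest 25% of genes left out, 6 with only the 4 groups in the fit, 2 with quantile normalization, 0 with Lars2 as a covariate, and 1 to 4 with 1 animal left out. The count was 1 without the 84-week DKO animal or DKO_EP replicate 2, 3 or 4, and 2 without DKO_EP replicate 5. Krt13, not past the threshold with all animals, was reversed with an offset of 8, at -0.13. The cause of each change was not tested. No paired analysis was possible because the labels give these animals no replicate numbers that groups share. Depth limits the genes at 0 to a few reads, Pdcd1 among them.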

Other observations

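Gene lists not described above gave the following counts at an unadjusted p under 0.05, with no call past the adjusted threshold. Over all genes 6.67% were higher and 7.96% lower at that threshold, and 2.46% were higher and 2.32% lower without overlap. Of 24 imprinted growth genes 2 were higher in DKO_EP, near the share over all genes, and 0 lower. The cell cycle inhibitor gene Cdkn1c and the growth factor adaptor gene Grb10 had no overlap between the groups. Of 21 genes of epithelial-mesenchymal transition 1 was higher and 5 were lower, with a median of -0.49. Of 34 genes of TGF-beta and BMP signalling 4 were higher and 4 lower. The median over 13 neutrophil genes was -1.97 with all animals and -0.30 without the 99-week one.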
